A study of Homo sapiens with 9 samples.

Results

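The response of U2OS cells to 1 BAP1-directed hairpin, shBAP1 #1, was compared with the non-targeting hairpin shControl across 19775 genes, using the 3 arrays titled for each, 6 of the 9 arrays in the series. U2OS is a human osteosarcoma cell line. In the control group the cells carried an shControl plasmid, and in the other group a plasmid encoding shBAP1 #1. Both groups were lipid-transfected, selected with puromycin and arrested where G1 meets S phase by a double thymidine block, so the controls carry the selection and the arrest too. The remaining 3 arrays hold a second hairpin against the same gene, shBAP1 #2, treated alike, and are used here for the spread of the fit and for direct comparisons with shBAP1 #1. The arrays read bulk RNA from transfected, drug-selected populations, and nothing in the labels tells whether the replicates are independent cultures. The p-values therefore describe the spread of these samples alone, and that spread may be technical. The number of arrays limits the precision.

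BAP1 is a tumour suppressor that acts in the nucleus as a deubiquitinase. It removes ubiquitin from histone H2A, the mark that Polycomb repressive complex 1 places, and it works in complexes with the Additional sex combs-like proteins, the cell cycle cofactor HCF-1, the glycosyltransferase OGT and sequence-specific factors such as YY1 and FOXK proteins. As cells leave G1, E2F factors drive the genes of DNA replication, and BAP1 loss is known to slow entry into S phase in several cell types. A short hairpin RNA is processed to a small RNA that guides cleavage of the transcript it matches and can also lower transcripts matched in part, so the response to 1 hairpin can hold effects of its target and of its own sequence.

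Among probe sets with 1 gene symbol in the annotation, 0 were assigned to BAP1. The 1801 sets with several symbols were not searched for it. Its transcript was not analysed here, and the hairpin labels have no check from it. Expression values are log2 values after robust multi-array averaging, a difference of 1 being 2-fold, and array medians were 5.4 to 5.45. Across probe sets, r was 0.985 to 0.99 between shControl and shBAP1 #1 arrays and 0.995 to 0.997 within shBAP1 #1. Bone lineage genes RUNX2, SPP1, COL1A1, SPARC and BMP2 lay above the median of gene means (6.57), 5 of 14 such markers. The immune markers PTPRC, MS4A1, CD14, LYZ and NKG7 were in the lowest quartile of gene means, 5 of 10 listed, as were the endothelial CDH5, KDR, TIE1 and EMCN, 4 of 11, and the epithelial KRT14, KRT19, ESRP1 and GRHL2, 4 of 16. Other members lay above the median of gene means: the immune CD3D and CD79A, the endothelial PECAM1 and ROBO4, and the epithelial KRT8, KRT18, OCLN and MUC1, the last as many as the dim ones. With shBAP1 #1, 0 of these epithelial, endothelial or immune markers rose, against 13% of all genes, and 25%, 27.3% and 10.0% fell, against 12.6% of all genes. Most of them lay below the median of gene means in both groups (12 of 16, 9 of 11 and 8 of 10). In the lowest quartile of gene means 1.98% of genes rose and 1.21% fell, and in the next 7.36% and 6.45%. The part of these markers in the results was not tested. In bulk RNA, fewer cells of a type and less RNA per cell cannot be told apart.

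shBAP1 #1 changed the expression of 5058 genes, 25.6% of those tested, by limma at a Benjamini-Hochberg adjusted p below 0.05, and the rest of the text calls such genes changed. Of these, 2574 rose (13%) and 2484 fell (12.6%). RMA gives every array the same distribution, so the balance of both directions is largely set by the processing and is not read as a result. Most changes were small. The median absolute log2 change of a changed gene was 0.49, against 0.12 over all genes, and 1 changed gene in 10 exceeded 1.01. At an unadjusted p below 0.05 the count was 6774 (34.3%). Changes of at least 1.5-fold numbered 869 raised genes (4.39%) and 960 lowered genes (4.85%). At least 2-fold changes numbered 228 raised genes (1.15%) and 286 lowered genes (1.45%). At least 4-fold changes numbered 21 raised (0.106%) and 9 lowered (0.0455%). Tested against a fold of 1.2 instead of 0 change, 888 genes were raised and 923 lowered. The arrays of both groups did not overlap, with shBAP1 #1 higher, for 3973 genes (20.1%), and with shBAP1 #1 lower for 3693 (18.7%). At the threshold, 273 genes had an adjusted p between 0.04 and 0.05, and 230 between 0.05 and 0.06.

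Calls depended on how brightly a gene was read. In the lowest quartile of gene means 1.98% rose and 1.21% fell, and in the highest quartile 23.0% rose and 23.8% fell. The chart of calls by level shows the increase over the middle bins. Protein-coding genes were raised in 14.6% and lowered in 14.1% of 16517, and long noncoding RNA genes in 4.82% and 4.89% of 2658. Moves between dark and bright were rare: FLRT3 and KRTAP4-9 went from the lowest quartile of gene means to above the median, and 0 genes went the other way.

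**Figure D1:**
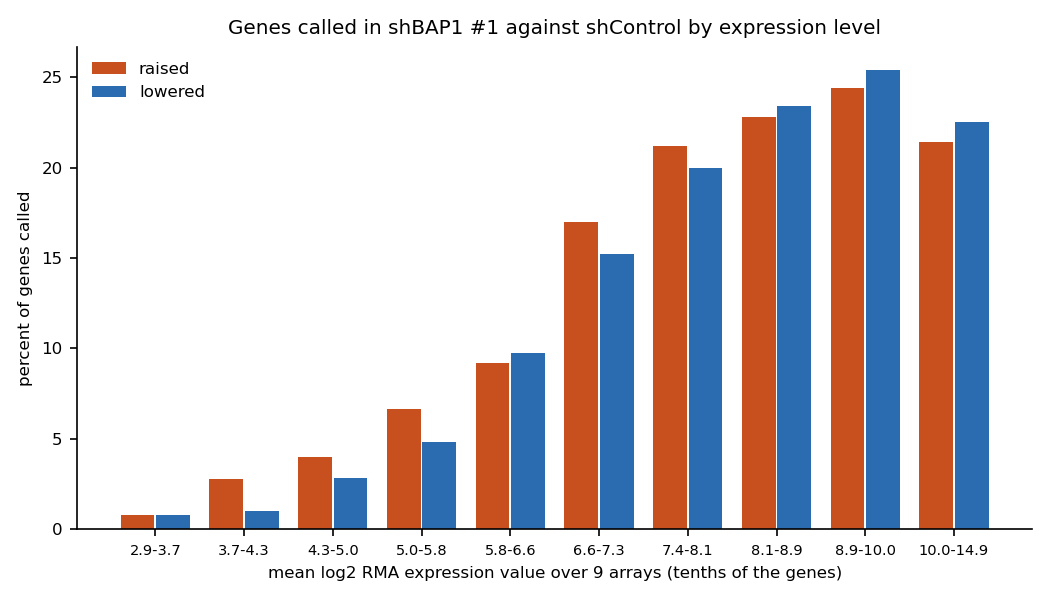
Percent of genes raised (orange) and lowered (blue) in shBAP1 #1 against shControl, for equal-sized bins of the 19775 genes ordered by mean log2 expression over 9 arrays, with the range of means under each pair of bars. In the dimmest bin 0.758% were raised and 0.758% lowered, and in the bin next to the brightest 24.4% and 25.4%.

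The most raised gene was CFAP58, which encodes a protein of cilia and flagella. CFAP58 read 8.16, 7.42 and 8.70 in the control arrays and 11.38, 11.47 and 11.06 in the shBAP1 #1 arrays. Every shBAP1 #1 array lay above every control array, and the log2 change was 3.21 (SE 0.28, adjusted p = 2.9e-05, 9.25-fold). A second probe set of CFAP58 was not called (-0.05). SUGCT, a mitochondrial enzyme of glutarate metabolism, read 7.92, 7.63 and 8.25 in the controls and 10.69, 11.20 and 10.59 with shBAP1 #1. The groups were again apart, by 2.89 (SE 0.18, adjusted p = 6.5e-06). FLRT3, a leucine-rich repeat adhesion protein that binds latrophilins and UNC5 receptors, read 3.85, 3.94 and 4.21 in the controls and 6.94, 6.78 and 6.34 with shBAP1 #1. It was near the floor of the arrays in every control and well above it in every shBAP1 #1 array, a log2 change of 2.69 (SE 0.15, adjusted p = 4.4e-06). Its other probe set rose too, by 1.61.

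Next among the most raised genes, PDGFC, a platelet-derived growth factor ligand, read 8.06, 7.70 and 8.79 in the controls and 10.72, 10.96 and 10.69 with shBAP1 #1. The groups did not overlap, and both probe sets of PDGFC rose, by 2.60 (SE 0.24, adjusted p = 3.4e-05) and 2.65. TMEM45A, a transmembrane protein, read 9.05, 8.69 and 9.32 in the controls and 11.72, 11.51 and 11.29 with shBAP1 #1. TMEM158, a membrane protein known to be induced during Ras-driven senescence, read 7.6, 7.46 and 7.78 in the controls against 10.01, 10.17 and 9.76. In both genes all shBAP1 #1 arrays were higher, with log2 changes of 2.49 and 2.37 (SE 0.15 and 0.16). TTYH3, of the tweety family of membrane proteins, read 8.37, 8.13 and 8.55 in the controls and 10.62, 10.48 and 10.33 with shBAP1 #1, a change of 2.13. The metalloproteinase ADAM19 rose by 2.25 on its kept probe set and was not called on another (-0.17). MGAM, an intestinal-type alpha-glucosidase, rose by 2.31, the keratin-associated KRTAP4-9 by 2.56 on a probe set whose suffix marks probes that match unrelated transcripts too, and the noncoding GAPLINC and the protease inhibitor SPINK6 by 2.52 and 2.49.

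Fibrillar collagens and smooth muscle actin genes completed the most raised set. COL5A2, a chain of type V collagen, read 6.96, 7.06 and 6.75 in the controls and 9.33, 9.36 and 9.06 with shBAP1 #1. COL3A1, the type III collagen chain, read 5.10, 4.74 and 5.02 against 6.90, 7.11 and 7.15. Replicates were tight and the groups did not overlap in either gene, with log2 changes of 2.32 (SE 0.10) and 2.10 (SE 0.12). For COL3A1, 1 further probe set rose (2.02) and 3 were not called (0.20, 0.11 and 0.04). COL22A1 rose by 2.34, and its other probe sets were not called. The actin cross-linking protein transgelin, TAGLN, read 7.33, 6.94 and 7.06 in the controls and 9.92, 9.38 and 8.95 with shBAP1 #1. Smooth muscle actin, ACTA2, read 7.73, 7.67 and 7.59 against 9.80, 9.99 and 9.45. The changes were 2.31 (SE 0.20) and 2.08 (SE 0.12), and 2 further probe sets of ACTA2 were not called (0.07 and -0.12). TAGLN had 1 further set raised (2.87) and 1 not called (0.07). SYNE1, nesprin-1, which ties the nuclear envelope to actin, read 8.35, 7.37 and 8.32 in the controls and 10.34, 10.67 and 9.33 with shBAP1 #1. The groups did not overlap, but the spread was wide: its change of 2.11 (SE 0.60, adjusted p = 0.0241) missed the threshold without shControl replicate 2 (1.78, adjusted p = 0.0932), without shBAP1 #1 replicate 1 (1.99, adjusted p = 0.0815) and without shBAP1 #1 replicate 2 (1.83, adjusted p = 0.0891).

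**Figure D2:**
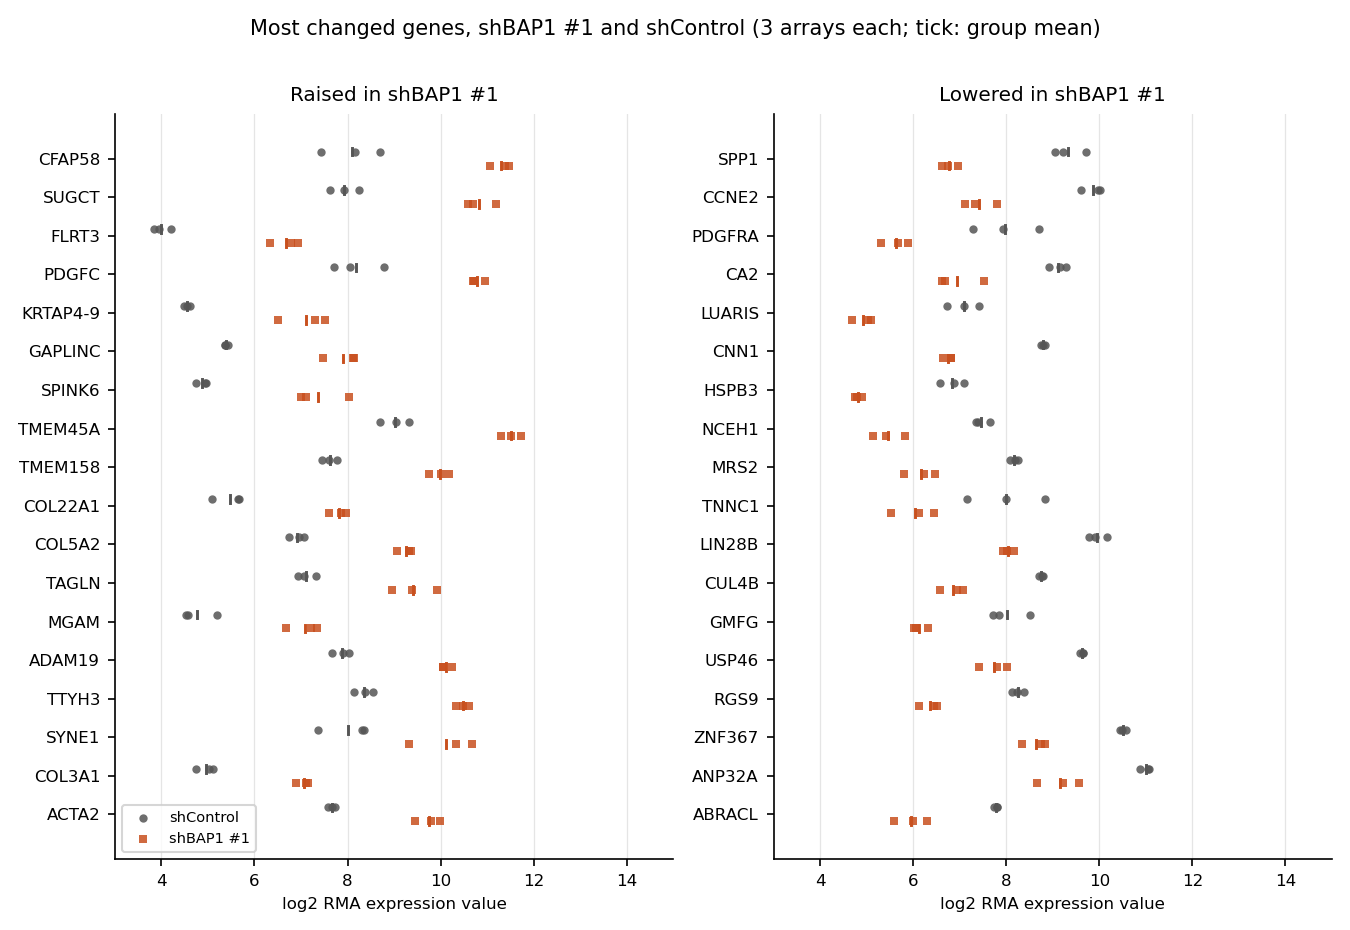
Log2 expression in the 3 shControl arrays (grey circles) and the 3 shBAP1 #1 arrays (orange squares) for the 18 most raised (left) and 18 most lowered genes (right), with group means as ticks. The groups do not overlap in any row, which the choice of genes required, and CFAP58 (3.21) and SPP1 (-2.54) lie farthest apart.

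The most lowered gene was SPP1, which encodes osteopontin, a secreted phosphoprotein of bone matrix. SPP1 read 9.21, 9.05 and 9.72 in the control arrays and 6.62, 6.75 and 6.97 in the shBAP1 #1 arrays. All shBAP1 #1 arrays lay below all controls, a log2 change of -2.54 (SE 0.17, adjusted p = 9.6e-06, 5.82-fold), and a second probe set was not called (-0.18). CA2, a cytosolic carbonic anhydrase, read 9.15, 8.92 and 9.28 in the controls and 6.69, 6.61 and 7.53 with shBAP1 #1. NCEH1, a hydrolase of cholesterol esters, read 7.39, 7.35 and 7.66 against 5.13, 5.41 and 5.82. Neither gene's groups overlapped, and the changes were -2.17 (SE 0.21) and -2.02 (SE 0.15). TNNC1, a calcium-binding troponin, read 7.99, 8.83 and 7.16 in the controls and 5.52, 6.45 and 6.13 with shBAP1 #1. Its controls were widely spread but stayed above all shBAP1 #1 arrays (-1.96, SE 0.35, adjusted p = 0.002).

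Several lowered genes were backed by more than 1 probe set. CUL4B, a scaffold of cullin-RING ubiquitin ligases, read 8.76, 8.79 and 8.71 in the controls and 6.57, 7.07 and 6.94 with shBAP1 #1, a change of -1.90 (SE 0.11, adjusted p = 5.2e-06). Its 3 other probe sets were all lower as well, by -2.21, -1.86 and -1.76. ANP32A, an acidic nuclear phosphoprotein that handles histones and inhibits a phosphatase, read 11.07, 10.88 and 11.05 in the controls and 8.65, 9.22 and 9.57 with shBAP1 #1. Both of its other sets fell, by 1.73 and 1.45 on the log2 scale, beside 1.85 for the kept set. MRS2, the magnesium channel of mitochondria, read 8.18, 8.09 and 8.25 against 5.81, 6.24 and 6.46. It changed by -2.0 on the kept set, 2 of its other 3 sets were lowered, and the groups did not overlap. GMFG, which takes apart branched actin, RGS9, a brake on G protein signalling, and the zinc finger gene ZNF367 changed by -1.89, -1.88 and -1.86. Of the 36 most changed genes, 19 had 1 probe set. The other 17 had 35 further sets, of which 18 were called the same way, 17 were not called and 0 were called the opposite way.

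Direct comparison with shBAP1 #2 showed how much of this response differed between the hairpins. Between shBAP1 #1 and shBAP1 #2 arrays 6860 genes differed (34.7%), 3478 higher (17.6%) and 3382 lower (17.1%) with shBAP1 #1. Of the 2574 genes raised against shControl, 1305 were also higher than in shBAP1 #2 (6.6% of all genes tested). Of the 2484 lowered, 1350 were also lower than in shBAP1 #2 (6.83% of all genes tested). Another 279 genes (1.41%) were raised but still lower than in shBAP1 #2, and 237 (1.2%) lowered but still higher. Both hairpins were set against the same 3 control arrays, so their changes against control are given side by side and not related to each other.

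Among genes that set shBAP1 #1 apart from both other groups, CFAP58 read 7.63, 7.27 and 6.87 with shBAP1 #2 and was 4.05 higher with shBAP1 #1 (SE 0.28, adjusted p = 4.7e-06). FLRT3 read 3.97, 4.11 and 3.87 with shBAP1 #2, within the range seen in controls, and rose with shBAP1 #1 alone (difference 2.7). BBOF1, which orients the basal bodies of cilia, read 6.67, 6.57 and 6.90 in the controls, 8.60, 8.85 and 8.63 with shBAP1 #1 and 5.98, 5.25 and 5.07 with shBAP1 #2. It rose by 1.98 against the controls with shBAP1 #1 and changed by -1.28 with shBAP1 #2. ARRDC4, an arrestin-domain protein related to the thioredoxin-binding TXNIP, read 4.64, 4.88 and 4.99 in the controls, 6.76, 6.69 and 6.92 with shBAP1 #1 and 4.90, 4.71 and 4.36 with shBAP1 #2. Its shBAP1 #1 arrays alone were high, and the differences were 1.96 from control and 2.13 from shBAP1 #2. COL3A1 differed from shBAP1 #2 by 1.82, PDGFC by 2.16, SUGCT by 2.32, the hair keratin KRT33A by 2.01 and SYNE1 by 3.97, where shBAP1 #2 itself lay 1.86 below the controls. The change of SYNE1 from control missed the threshold without shControl replicate 2 (1.78), shBAP1 #1 replicate 1 (1.99) or shBAP1 #1 replicate 2 (1.83).

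Among the lowered genes, SPP1 read 11.07, 11.18 and 11.53 with shBAP1 #2, above the controls, and lay 4.47 lower with shBAP1 #1 than with shBAP1 #2 on the log2 scale (SE 0.17, adjusted p = 6.8e-07). The deubiquitinase gene USP46 read 9.65, 9.64 and 9.59 in the controls, 7.42, 7.80 and 8.02 with shBAP1 #1 and 10.13, 10.41 and 10.43 with shBAP1 #2. ABRACL, a small protein linked to actin, read 7.80, 7.73 and 7.80 in the controls, 5.58, 6.0 and 6.30 with shBAP1 #1 and 8.80, 8.90 and 9.18 with shBAP1 #2. For both, the 3 groups occupied separate ranges with shBAP1 #1 lowest. Other genes did not pass the threshold between shBAP1 #2 and shControl. MPC2, a subunit of the mitochondrial pyruvate carrier, read 10.52, 10.57 and 10.46 in the controls, 8.49, 8.75 and 9.11 with shBAP1 #1 and 10.46, 10.55 and 10.54 with shBAP1 #2. ADAM10, a membrane protease that sheds NOTCH and other surface proteins, read 10.55, 10.60 and 10.58 in the controls, 8.48, 9.06 and 9.13 with shBAP1 #1 and 10.66, 10.63 and 10.91 with shBAP1 #2. In both genes the shBAP1 #1 arrays alone stood low, with changes from control of -1.73 and -1.69. The same held, with changes of -1.81 to -1.66 from control, for KPNA3, an importin that carries proteins into the nucleus, APOO of the mitochondrial cristae complex, BEX5 and the RNA-binding FAM98A, each below all arrays of both other groups.

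**Figure D3:**
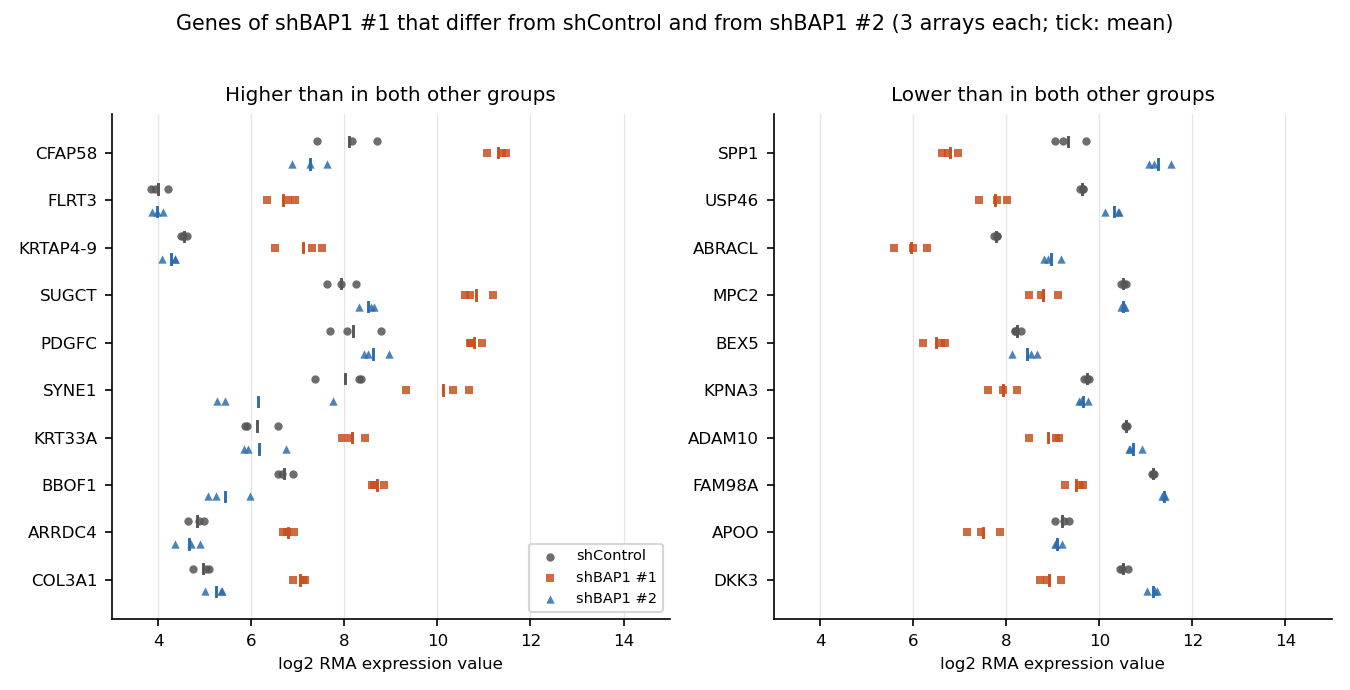
Log2 expression in the 3 arrays each of shControl (grey circles), shBAP1 #1 (orange squares) and shBAP1 #2 (blue triangles) for 10 genes higher (left) and 10 lower (right) in shBAP1 #1 than in both other groups, ranked by the smaller of both differences. SPP1 and ABRACL show shBAP1 #1 and shBAP1 #2 on opposite sides of the controls.

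Of the gene lists, DNA replication had the highest share of lowered members. The shares of this list and of those that follow stand beside 13% raised and 12.6% lowered over all genes. Brighter genes were called more often: 19.7% and 18.8% for gene means from 6.57 to 8.52, and 23.0% and 23.8% in the highest quartile. Of 56 DNA replication genes 36 fell and 2 rose, 64.3% lowered against 12.6% of all genes, with a median log2 change of -0.51 against 0.01. The count of lowered members depended on single arrays: 21 remained called without shControl replicate 1, 19 without shControl replicate 3 and 20 without shBAP1 #1 replicate 2. Tested against a fold of 1.2, 13 were lowered. The raised count was 0 or 1 without shControl replicate 2 or 3 or shBAP1 #1 replicate 1 or 3. GINS3, a subunit of the replicative helicase complex, read 8.68, 8.48 and 8.85 in the controls and 7.03, 6.95 and 7.67 with shBAP1 #1 (-1.46, SE 0.18). POLE2, a subunit of DNA polymerase epsilon, read 10.73, 10.61 and 10.73 against 9.22, 9.30 and 9.58 (-1.33, SE 0.17). GINS1 read 10.42, 10.26 and 10.44 against 9.12, 8.94 and 9.58 (-1.16, SE 0.17). In each the groups were apart, and shBAP1 #1 replicate 3 stood nearest to the controls.

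Some promoters of DNA replication genes hold letters bound by E2F factors, the activators of S phase genes. The 120 bases from 70 before the annotated start are shown for the named replication genes and most changed genes with such a match, 4 lowered genes, in RefSeq sequence of build GRCh38.p14, 5′ to 3′ on the strand of the gene, with the match in capitals.
GINS3, chr16:58392401-58392520, plus strand: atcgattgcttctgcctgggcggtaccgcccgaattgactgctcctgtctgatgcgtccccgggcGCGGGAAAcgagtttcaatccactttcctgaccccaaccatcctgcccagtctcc
POLE2, chr14:49688165-49688284, minus strand: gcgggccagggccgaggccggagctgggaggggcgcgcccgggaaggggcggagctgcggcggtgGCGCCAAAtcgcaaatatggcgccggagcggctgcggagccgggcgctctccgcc
GINS1, chr20:25407603-25407722, plus strand: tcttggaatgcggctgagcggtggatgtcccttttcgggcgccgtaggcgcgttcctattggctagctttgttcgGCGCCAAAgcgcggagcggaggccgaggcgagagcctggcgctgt
ZNF367, chr9:96418321-96418440, minus strand: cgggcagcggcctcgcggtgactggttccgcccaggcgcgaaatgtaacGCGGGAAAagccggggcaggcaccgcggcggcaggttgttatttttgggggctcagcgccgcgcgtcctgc
The letters searched on both strands were TTTGGCGC, TTTCCCGC and TTTGGCGG. All 4 of these matches lie on the opposite strand, with the first base 5 before the start in GINS3 and POLE2, 5 after it in GINS1 and 21 before it in ZNF367. Within 300 bases, 24 of 48 replication genes with a promoter sequence held a match, and 15 of the 32 lowered ones did. The share was no higher among the lowered members than over the whole list. Over 27305 promoters of the same length the share was 2.95%. A match describes the letters and is no evidence of binding.

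Promoter letters were counted across the whole response. Of 15384 tested genes with a promoter sequence, E2F letters were in 5.69% of lowered, 3.78% of raised and 3.52% of unchanged genes, and in 7.08% of those lowered at least 2-fold. Among genes above the median of gene means, where most calls lie, the shares were 6.06%, 4.0% and 4.78%. The letters TTTGAA of the cell cycle CHR element, in 15.4% of all promoters, were in 7.84% of raised, 11.3% of lowered and 12.8% of unchanged genes. Above the median gene mean these shares were 6.74%, 11.7% and 9.67%, the raised genes again lowest. The YY1 letters AANATGGCG were in 6.62% of raised, 6.68% of lowered and 4.26% of unchanged genes, and in 3.37% of all promoters. Above the median gene mean they were in 7.31%, 7.6% and 8.06%, so raised and lowered genes no longer lay above unchanged ones. The same happened with the ETS letters CCGGAAGT, 8.46% and 8.89% of raised and lowered against 5.35% of unchanged genes, and 9.54%, 9.78% and 10.1% above the median gene mean (4.44% of all promoters). Genes raised at least 2-fold held ETS and NRF1 letters (GCGCATGC, 3.27% of all promoters) in 1.14% each, and those lowered at least 2-fold in 7.52% and 7.08%. Over all tested genes the shares were 6.25% and 4.21%. The 2-fold sets held 175 and 226 promoters and were not compared above the median gene mean. The letters TATAAA were in 10.9% and 5.75% of these sets (12% of all promoters).

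Nuclear transport genes fell more often than they rose. In the highest quartile of gene means 23.0% of genes rose and 23.8% fell. Of 44 nuclear pore and import genes 19 fell and 2 rose (43.2% and 4.55%), with a median log2 change of -0.23; the raised count was 4 without shBAP1 #2 replicate 1 or with the replicate number as a block in the 6 arrays alone. The importin KPNB1, the main carrier of cargo through the pore, read 12.18, 12.18 and 12.25 in the controls and 10.87, 11.04 and 11.24 with shBAP1 #1. NUP43, a subunit of the pore's outer ring, read 10.59, 10.67 and 10.68 against 8.93, 9.15 and 9.51. Both were lower in every shBAP1 #1 array, by -1.15 (SE 0.10) and -1.45 (SE 0.16). KPNB1 also lay below shBAP1 #2 (difference -1.27, adjusted p = 9.1e-06), while for NUP43 the difference from shBAP1 #2 was -0.23 (adjusted p = 0.306). KPNA3, importin alpha 4, changed by -1.81, and KPNA4 and SEH1L were the 2 raised members.

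Splicing factor genes also fell more often than they rose. Of 38 splicing factor genes 15 fell and 5 rose (39.5% and 13.2%), with a median of -0.18. Over all genes 12.6% fell and 13% rose, and in the highest quartile of gene means 23.8% and 23.0%. MBNL1, a muscleblind regulator of alternative exons, read 10.27, 10.26 and 10.26 in the controls and 8.82, 9.12 and 9.08 with shBAP1 #1. MBNL2 read 8.29, 8.20 and 8.20 against 7.25, 7.40 and 7.05. Neither pair of groups overlapped, and the changes were -1.26 (SE 0.09) and -1.0 (SE 0.10), while their relative MBNL3 was among the raised. The lowered members also held HNRNPAB (-0.79), QKI, PTBP2 and 6 other hnRNP genes. CELF2, which acts against muscleblind proteins on shared exons, rose by 0.72.

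Stress-response lists differed in their shares. Endoplasmic reticulum chaperones had 9 of 29 members raised and 3 lowered (31.0% and 10.3%), and cytosolic chaperones 6 of 34 raised and 7 lowered (17.6% and 20.6%). Over all genes 13% rose and 12.6% fell, and in the highest quartile of gene means 23.0% and 23.8%. The cytosolic chaperone shares did not exceed those of that quartile. Of 29 NRF2 target genes 13 fell and 2 rose (44.8% and 6.90%, median -0.18), and the raised count was 1 without shControl replicate 1 or shBAP1 #1 replicate 2. The NRF2 gene itself, NFE2L2, read 10.52, 10.52 and 10.58 in the controls, 9.69, 9.79 and 9.70 with shBAP1 #1 and 10.85, 10.60 and 10.88 with shBAP1 #2. NQO1, a quinone reductase, read 11.56, 11.64 and 11.56 in the controls, 10.71, 10.68 and 11.04 with shBAP1 #1 and 11.91, 12.05 and 12.02 with shBAP1 #2. Both were low with shBAP1 #1 alone, by -0.81 and -0.78 from the controls and -1.05 and -1.18 from shBAP1 #2. Of 35 autophagy genes 9 fell and 4 rose (25.7% and 11.4%, median -0.08). The lowered share was near the 23.8% of the highest quartile of gene means, where 23.0% rose. SQSTM1, the cargo receptor p62, read 10.51, 10.80 and 10.39 in the controls, 9.47, 9.49 and 9.46 with shBAP1 #1 and 11.89, 12.17 and 12.19 with shBAP1 #2. It was lowest with shBAP1 #1 and highest with shBAP1 #2, with no overlap, and the difference between hairpins was -2.61. MAP1LC3B, the LC3 protein that coats autophagosomes, changed by -1.07 from the controls with shBAP1 #1 and by 0.70 with shBAP1 #2, a difference of -1.77. The scaffold RB1CC1 and the receptor NBR1 changed by -1.34 and -1.21 against the controls.

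**Figure D4:**
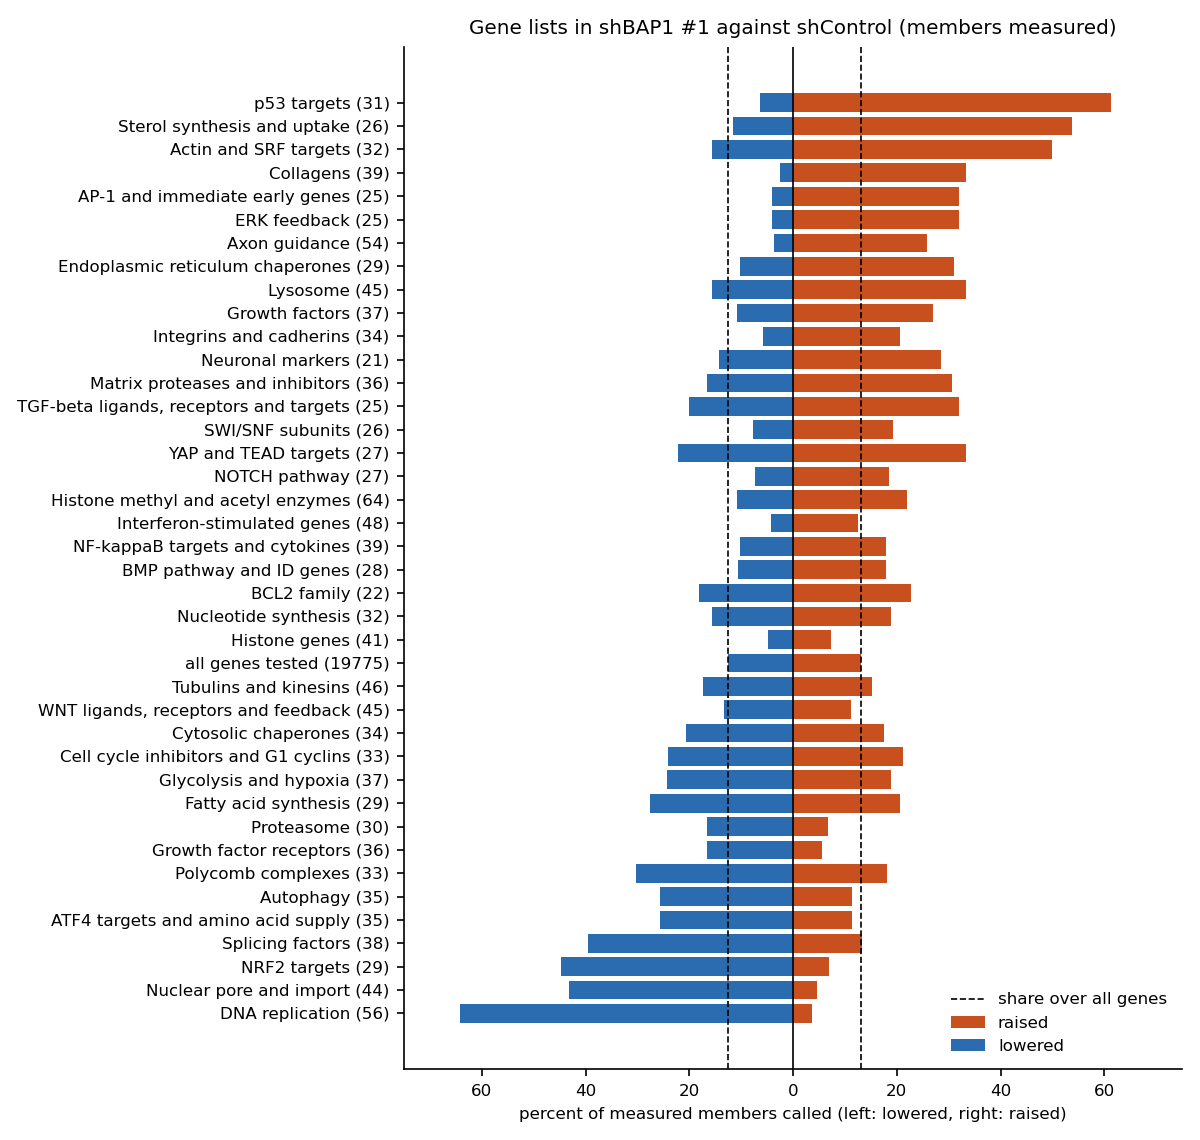
Percent of measured members raised (orange, right) and lowered (blue, left) in shBAP1 #1 against shControl for gene lists with at least 20 measured members, whose number is in brackets, ordered by the difference of both shares. Dashed lines mark the shares over all genes, 13% raised and 12.6% lowered, and DNA replication (64.3% lowered) and p53 targets (61.3% raised) stand at the ends.

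On the raised side, p53 target genes stood highest, 19 of 31 raised and 2 lowered (61.3% and 6.45%, median 0.41); the lowered count was 1 without shControl replicate 1 or 3. TP53INP1, a p53-induced regulator of cell death, read 7.91, 8.03 and 7.65 in the controls and 9.26, 9.43 and 9.16 with shBAP1 #1. DDB2, a sensor of ultraviolet damage, read 9.19, 9.03 and 9.55 against 10.33, 10.26 and 10.35. The groups did not overlap, and the changes were 1.42 (SE 0.14) and 1.05 (SE 0.12). CYFIP2 and the death receptor TNFRSF10B rose by 0.97 and 1.09. Among cell cycle regulators 7 of 33 rose and 8 fell (21.2% and 24.2%), near the 23.0% and 23.8% of the highest quartile of gene means. At least 2-fold, 2 rose and 3 fell. The most lowered was cyclin E2, CCNE2 (-2.46, its other probe set -2.40), followed by SKP2. CCND2, cyclin D2, read 11.11, 11.06 and 11.03 in the controls and 12.26, 12.33 and 12.18 with shBAP1 #1, and the pocket protein gene RBL1 7.41, 7.0 and 7.45 against 6.09, 5.90 and 6.28. The former was higher (1.19) and the latter lower (-1.19) in every array.

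Growth factors and their receptors gave these counts, beside 13% raised and 12.6% lowered over all genes. Of 37 growth factor genes 10 rose and 4 fell (27.0% and 10.8%), and 7 of the 10 rose at least 2-fold, while over the list the median was 0.03. Besides PDGFC, NRG1, the ligand of ERBB3 and ERBB4, read 8.31, 7.79 and 8.35 in the controls, 10.22, 9.87 and 9.37 with shBAP1 #1 and 8.03, 7.30 and 7.16 with shBAP1 #2. KITLG, the ligand of KIT, read 7.03, 6.72 and 7.46 in the controls, 8.74, 9.10 and 8.20 with shBAP1 #1 and 6.88, 6.52 and 6.87 with shBAP1 #2. In both, shBAP1 #1 was higher than either other group, by 1.67 and 1.61 from the controls and by 2.32 and 1.93 from shBAP1 #2. VEGFC, which drives lymphatic growth, rose by 1.68, and BDNF, FGF5, FGF1, EGF, HBEGF and CSF1 were the other raised members. Of 36 growth factor receptor genes 2 rose and 6 fell (5.56% and 16.7%), and PDGFRA, the receptor of PDGFC, fell by 2.35. Of the other PDGFRA probe sets, 1 was lowered (-0.67) and 2 were not called (-0.09 and -0.00). The raised receptor count was 4 with the replicate number as a block and 6 in the blocked fit of the 6 arrays alone. It was 1 without shControl replicate 2 or shBAP1 #1 replicate 1 and 4 without shBAP1 #2 replicate 1.

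Genes that follow signalling through ERK and AP-1 were raised in part. Of 25 ERK feedback genes 8 rose and 1 fell (32.0% and 4.0%, median 0.13), the lowered count being 2 without shBAP1 #2 replicate 1 or in the blocked fit of the 6 arrays. PHLDA1, induced by growth factor signalling, read 6.67, 6.87 and 7.0 in the controls and 8.59, 8.47 and 8.62 with shBAP1 #1. SPRY2, a Sprouty inhibitor of the pathway, read 7.48, 7.39 and 7.45 against 8.31, 8.43 and 8.20. All shBAP1 #1 arrays were higher, by 1.72 (SE 0.16) and 0.87 (SE 0.07), and the lowered member was the inhibitor SPRED1 (-0.78). Of 25 AP-1 and immediate early genes 8 rose and 1 fell (32.0% and 4.0%, median 0.16). FOSL2, an AP-1 subunit, read 8.84, 8.60 and 8.65 in the controls and 9.59, 9.58 and 9.68 with shBAP1 #1. EGR1, an early growth response factor, read 11.35, 10.71 and 11.30 against 11.72, 12.14 and 12.24. Both pairs of groups were apart, by 0.92 (SE 0.08) and 0.91 (SE 0.19). The raised AP-1 count was 5 without shControl replicate 1 or shBAP1 #1 replicate 3, and the lowered count was 0 without shControl replicate 1 or 3 or shBAP1 #1 replicate 1 and 2 without shBAP1 #2 replicate 1 or in the blocked fit of the 6 arrays.

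Matrix and actin genes were raised more often than lowered. Of 39 collagen genes 13 rose and 1 fell (33.3% and 2.56%, median 0.07), 6 of them at least 2-fold, and the lowered count was 2 without shBAP1 #2 replicate 2. COL11A1, a minor fibrillar collagen of cartilage, read 6.79, 6.54 and 6.80 in the controls, 8.30, 8.37 and 8.26 with shBAP1 #1 and 6.92, 6.86 and 6.93 with shBAP1 #2. It was high with shBAP1 #1 alone (1.60 from control). TGFBI, a matrix protein induced by TGF-beta, read 9.95, 9.90 and 10.15 in the controls, 11.69, 11.67 and 11.78 with shBAP1 #1 and 9.72, 9.60 and 9.50 with shBAP1 #2. It rose by 1.71 with shBAP1 #1 and was 2.11 above shBAP1 #2 (adjusted p = 7.3e-07). Of 32 actin and serum response factor genes 16 rose and 5 fell (50% and 15.6%, median 0.24). The members did not move together: TAGLN and ACTA2 were among the most raised, CNN1, a calponin of smooth muscle, changed by -2.03 and MYH10, nonmuscle myosin IIB, by -1.52.

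Among axon guidance genes, whose ligands and receptors also steer other migrating cells, 14 of 54 rose and 2 fell (25.9% and 3.70%, median 0.11). EPHB1, an ephrin receptor, read 5.26, 5.01 and 5.82 in the controls and 7.04, 7.27 and 7.01 with shBAP1 #1. The repulsive ligand SEMA3A read 4.50, 4.57 and 4.45 against 5.50, 5.91 and 5.4, and the SLIT receptor ROBO1 8.60, 8.48 and 8.48 against 7.09, 7.48 and 7.57. EPHB1 and SEMA3A were higher in all shBAP1 #1 arrays (1.74 and 1.10) and ROBO1 lower in all (-1.14). The lowered count was 1 without shControl replicate 1, without any 1 of the shBAP1 #1 arrays and without shBAP1 #2 replicate 2 or 3. Of 21 neuronal markers 6 rose and 3 fell (28.6% and 14.3%, median -0.02), against 13% and 12.6% of all genes. NEFL, STMN2, STMN3, SYT1, SYP and TUBB3 rose. The neuronal RBFOX3 and SNAP25 fell, and the list counts the repressor REST as the other lowered member. NEFL, the light neurofilament chain, read 10.07, 9.98 and 10.32 in the controls and 11.69, 11.80 and 11.81 with shBAP1 #1. REST, the repressor of neuronal genes outside neurons, read 8.11, 8.26 and 8.21 in the controls, 7.02, 7.42 and 7.57 with shBAP1 #1 and 8.11, 8.12 and 8.36 with shBAP1 #2. NEFL was higher in every shBAP1 #1 array (1.64, SE 0.09), and REST was lower with shBAP1 #1 alone (-0.86, SE 0.13).

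The bone lineage list showed 4 raised and 1 lowered of 14 members (28.6% and 7.14%, median 0.11). RUNX2, the master factor of osteoblasts, read 6.99, 6.72 and 6.66 in the controls, 8.10, 7.61 and 8.26 with shBAP1 #1 and 6.99, 6.62 and 6.84 with shBAP1 #2. COL1A1, the main collagen chain of bone, read 11.30, 11.31 and 11.15 in the controls, 12.26, 12.22 and 12.26 with shBAP1 #1 and 10.81, 11.27 and 11.37 with shBAP1 #2. Both were high with shBAP1 #1 alone, by 1.2 and 0.99 from the controls, while osteopontin, SPP1, was the lowered member (-2.54). ID1 and ID4, targets of BMP signalling, rose by 0.79 and 0.97 with shBAP1 #1, and in shBAP1 #2 their changes were -0.65 and -1.47.

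Sterol genes rose more often than they fell, and fatty acid genes moved both ways. Over all genes 13% rose and 12.6% fell. Of 26 genes of sterol synthesis and uptake 14 rose and 3 fell (53.8% and 11.5%, median 0.30). INSIG1, the sterol-sensing brake on SREBP, read 8.60, 8.84 and 8.15 in the controls, 9.60, 9.64 and 9.33 with shBAP1 #1 and 5.58, 5.33 and 4.81 with shBAP1 #2. SQLE, squalene epoxidase, read 10.37, 10.65 and 10.09 in the controls and 11.23, 11.43 and 11.07 with shBAP1 #1. Both rose, by 0.99 (SE 0.21) and 0.88 (SE 0.14), and INSIG1 differed from shBAP1 #2 by 4.28 (adjusted p = 1.1e-06). Of 29 fatty acid genes 6 rose and 8 fell (20.7% and 27.6%, median -0.01). These shares were near those of genes with means of 8.12 to 8.95, 22.8% raised and 23.4% lowered. The lowered members were led by chain elongation enzymes: ELOVL6 read 9.44, 9.86 and 9.59 in the controls and 7.68, 8.15 and 8.10 with shBAP1 #1. HACD2, the dehydratase of the elongation cycle, read 10.30, 10.19 and 10.19 against 9.11, 9.20 and 9.38. Neither pair of groups overlapped (-1.66 and -1.0), and ELOVL7 and HACD3 changed by -1.02 and -0.98, while FASN and ACACA, which build the chain, were among the raised.

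Chromatin genes moved both ways. Of 33 Polycomb genes 6 rose and 10 fell (18.2% and 30.3%, median 0.07). PCGF5, a subunit of variant Polycomb complex 1, read 9.36, 9.13 and 9.53 in the controls and 7.70, 7.92 and 7.90 with shBAP1 #1. SUZ12, a core subunit of complex 2, read 10.28, 10.31 and 10.42 against 9.52, 9.51 and 9.50. All shBAP1 #1 arrays were lower, by -1.50 (SE 0.11) and -0.82 (SE 0.08), and SCML1 and SCML2 changed by -1.51 and -0.90. Of 64 enzymes of histone methylation and acetylation 14 rose and 7 fell (21.9% and 10.9%, median 0.11). The raised share was near the 19.7% of all genes with means from 6.57 to 8.52. The raised count was 8 without shControl replicate 1, shBAP1 #1 replicate 1 or shBAP1 #1 replicate 3 and 9 without shControl replicate 2. SETD7, a lysine methyltransferase, read 10.21, 10.14 and 10.23 in the controls and 8.24, 8.52 and 8.81 with shBAP1 #1. KDM1A, the demethylase LSD1, read 9.85, 9.76 and 9.86 in the controls, 8.97, 8.93 and 9.33 with shBAP1 #1 and 9.71, 9.66 and 9.72 with shBAP1 #2. Both were lower in all shBAP1 #1 arrays (-1.67 and -0.75), and KDM1A lay below the shBAP1 #2 arrays too (difference -0.62). Of 17 genes for HCF-1, YY1 and other BAP1 partners 3 rose and 3 fell (17.6% each). These shares were near the 19.7% raised and 18.8% lowered of all genes with means from 6.57 to 8.52. The lowered count was 1 without shControl replicate 2 or shBAP1 #1 replicate 1. OGT, the glycosyltransferase partner, read 9.76, 9.79 and 9.55 in the controls and 10.02, 10.13 and 9.91 with shBAP1 #1, a small rise (0.32, adjusted p = 0.0148) that missed the threshold without shControl replicate 3 (0.25, adjusted p = 0.0542) and without shBAP1 #1 replicate 2 (0.27, adjusted p = 0.0618).

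Families of genes that share the leading letters of a symbol showed further groups. Of 242 such families with at least 10 measured genes, 11 had no changed member. The largest share raised was that of intraflagellar transport genes (IFT), which build and serve cilia, 10 of 18 raised and 1 lowered (55.6% and 5.56%, median 0.27). IFT22 read 9.68, 9.57 and 9.78 in the controls, 10.35, 10.11 and 10.41 with shBAP1 #1 and 9.23, 8.84 and 8.98 with shBAP1 #2. Its 3 groups were apart, shBAP1 #1 highest (0.61, SE 0.11) and shBAP1 #2 lowest. Clustered beta protocadherins (PCDHB), neuronal adhesion proteins encoded side by side, followed with 9 of 17 raised and 0 lowered (52.9% and 0.0%, median 0.37). PCDHB5 read 8.78, 8.34 and 8.67 in the controls, 10.06, 9.71 and 9.92 with shBAP1 #1 and 8.11, 7.98 and 7.94 with shBAP1 #2. PCDHB2 read 7.57, 7.21 and 7.51 in the controls and 8.51, 8.21 and 8.60 with shBAP1 #1. All shBAP1 #1 arrays were higher, by 1.30 and 1.01, but these genes are near-identical copies and their probe sets can read each other. Myotubularin phosphatases (MTMR) had 6 of 12 raised and 2 lowered, KCTD genes 6 of 16 raised and 0 lowered, and MARCHF ubiquitin ligases 5 of 14 raised and 1 lowered. CYB genes moved both ways, with 6 of 13 raised and 3 lowered, 2 of these at least 2-fold, and a median of 0.02.

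On the lowered side THAP genes, zinc finger proteins of which some bind HCF-1, had 7 of 14 lowered and 1 raised (50% and 7.14%, median -0.38), a count that takes in antisense genes with the same letters. THAP5 read 7.34, 7.27 and 7.66 in the controls and 6.11, 6.38 and 6.24 with shBAP1 #1. Subunits of the RNA exosome (EXOSC), which degrades RNA from its end, had 5 of 10 lowered and 0 raised (50%, median -0.23). EXOSC8 read 10.41, 10.25 and 10.43 against 9.09, 8.95 and 9.40. The groups did not overlap in either gene, with changes of -1.18 (SE 0.12) and -1.22 (SE 0.11). Sm-like RNA-binding proteins (LSM) had 6 of 13 lowered, LSM2 by 0.58 on the log2 scale, and 2 raised, LSM14B and LSM10. MCM genes had 5 of 12 lowered, RAD genes 7 of 17 and ERCC genes 4 of 10, with 0 raised in each. The share lowered over all genes was 12.6%. Families were ranked by these same shares, so their order is a description.

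Probe sets without a gene in the annotation were raised in 3.58% and lowered in 3.41% of 11721, and named ones were read more than once for many genes. For 172 genes the probe sets gave opposite calls, 8.43% of the 2041 genes with at least 2 called probe sets, where calls were adjusted over 41097 probe sets, of which 21.8% were called (17.7% of all 54675). The count was 104 without shControl replicate 1 and 104 without shBAP1 #1 replicate 1. CHD2, a chromatin remodeller, had a kept probe set that read 7.24, 7.14 and 7.32 in the controls and 8.14, 8.63 and 8.41 with shBAP1 #1. Another of its sets read 8.02, 7.82 and 7.91 against 6.73, 6.99 and 7.07. The first was higher in all shBAP1 #1 arrays (1.16, SE 0.12) and the second lower in all (-0.99, SE 0.10). In all, 3 sets of CHD2 were lowered, the others by -0.60 and -0.40, and the kept set alone was raised. HMGA2, an architectural chromatin protein regulated by let-7, had a kept set that read 8.58, 9.12 and 8.34 in the controls and 7.28, 7.51 and 7.54 with shBAP1 #1. Another read 6.09, 6.13 and 5.67 against 7.71, 7.36 and 6.36, and the 2 sets changed by -1.24 and 1.18. ANTXR1, a collagen-binding receptor of anthrax toxin, had 3 sets raised by 0.75 to 1.28 and 1 lowered (-1.18). MTHFD2L had 3 raised and 1 lowered, BTG3 2 raised and 1 lowered, and LY6K 1 of each. Which transcripts of these genes each set reads was not analysed here, and their gene-level direction depends on the set kept: averaged over all sets of the gene, the change was -0.17 in CHD2 (adjusted p = 0.0823) and 0.14 in HMGA2 (adjusted p = 0.292), opposite in sign to the kept sets.

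**Figure D5:**
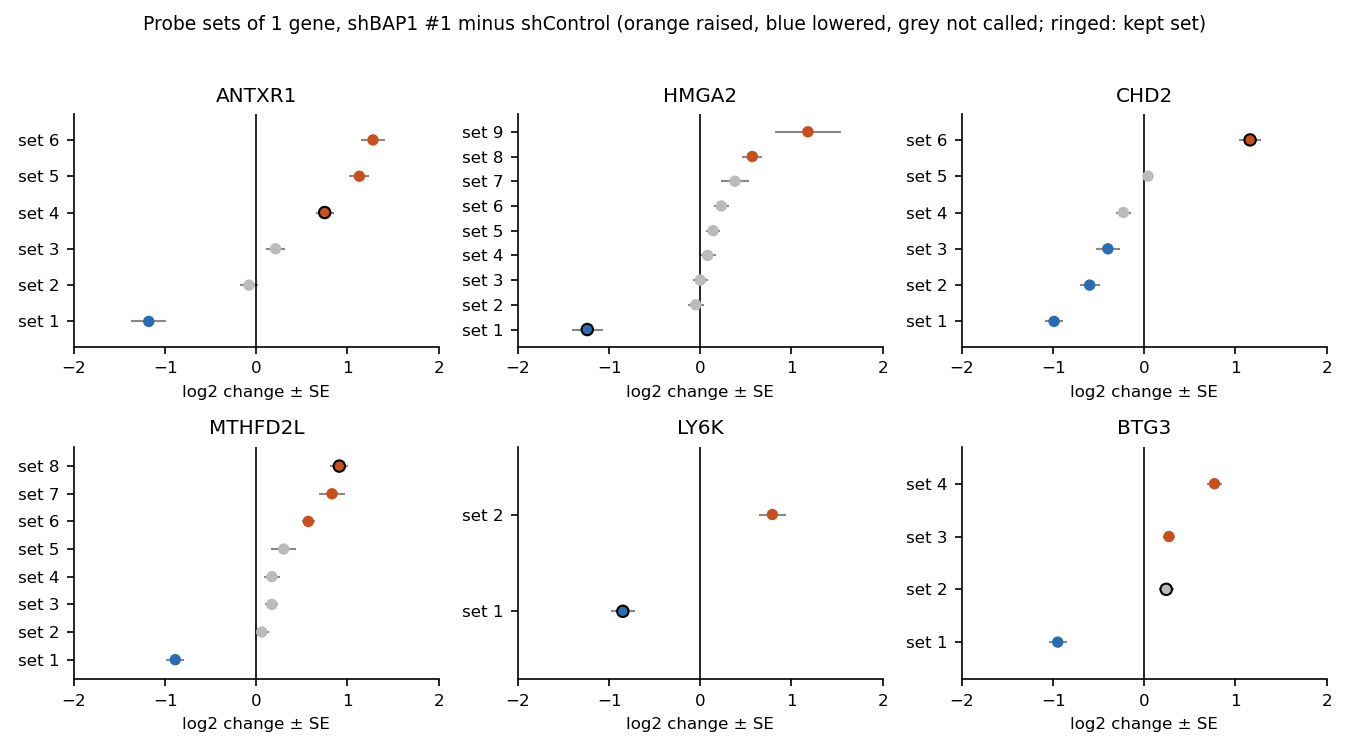
Log2 change of each probe set (shBAP1 #1 minus shControl, bars 1 SE) of 6 genes with sets called in opposite directions, the kept set ringed. CHD2 has a raised kept set (1.16) beside a lowered set (-0.99), and HMGA2 the reverse (-1.24 and 1.18).

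Along chromosomes, runs of at least 5 adjacent measured genes changed the same way were few, 2 raised and 2 lowered. HEMK1, CISH, MAPKAPK3, DOCK3, MANF and RBM15B rose by 0.30 to 0.42, an even and small set of changes. TBC1D23, NIT2, TOMM70, LNP1 and TMEM45A rose by 0.21 to 2.49, with TMEM45A far above its neighbours. SAR1B, SEC24A, CAMLG, DDX46 and C5orf24 changed by -1.14 to -0.38, the first 2 being parts of the coat that carries cargo out of the endoplasmic reticulum. ITPRIPL2, SYT17, TMC5, GDE1 and CCP110 changed by -0.59 to -0.44.

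The 3 shBAP1 #1 arrays did not stand equally far from the controls. Over the 286 genes lowered at least 2-fold, the median log2 difference from the control mean was -1.39 in shBAP1 #1 replicate 1, -1.24 in replicate 2 and -1.08 in replicate 3, and replicate 3 was the nearest to the controls in 205 of these genes. Over the 228 raised at least 2-fold, the medians were 1.27, 1.35 and 1.13, and replicate 3 was nearest in 145. The medians of all 3 arrays had the same sign, which the choice of genes from these arrays largely sets, and they differed in size. Whether the share of cells that carried the plasmid moved with these sizes was not tested.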

How the data were processed

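The authors deposited log2 values for each probe set, made with RMA per the submitters' processing notes, its version not given in the sources used here. RMA brings every array to 1 distribution, so a common shift of transcripts cannot be seen and dim changes are understated. Of 54675 probe sets, 41097 had 1 gene symbol, 1801 several and 11777 none in the platform annotation. Identifiers of 41043 matched a gene table of GRCh38.p14, and 0 symbols were updated. Each gene was read from its brightest set by mean over the 9 arrays.

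Models were fitted with limma 3.58.1 in R 4.3.3 (lmFit, eBayes, two-sided) on the 9 arrays of 3 groups (6 residual, 4.33 prior degrees of freedom) with Benjamini-Hochberg adjustment over 19775 genes. Tables and figures were made with Python 3.11.15, pandas 2.3.3 and matplotlib 3.10.9. On simulated data for 19775 genes, 55% of 100 genes with a log2 change of 0.5 and 96% of those with 1 were recovered, and 0.66% of calls were false. The simulation drew arrays independently and changed 100 genes at each size, far fewer than the 5058 called in the data. Its shares of recovered and false calls hold for that setting only. Same-numbered arrays of shControl and shBAP1 #1 deviated together (r = 0.113, 0.203 and 0.216), and differently numbered ones did not (-0.22 to 0.039). Yet replicate 2 of shBAP1 #1 and replicate 3 of shBAP1 #2 gave 0.236, and replicate 3 of both hairpins gave -0.21. Whether the numbers pair samples is therefore not settled, and no label states it.

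Named genes were the 18 most raised and 18 most lowered whose groups do not overlap and whose brighter group reaches the median gene mean (6.57), 10 of each direction that differ from both other groups, up to 4 changed members per list, 6 genes with opposite probe sets, and up to 3 members of 12 families. The rule, the members and the 46 gene lists were chosen with earlier results of these data known. Members named without values were only counted. Alternatives were other normalizations, a filter on dim genes, the mean of all probe sets, the 6 arrays alone, a replicate block, a fold minimum and each array left out.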

Additional observations from a re-analysis of the deposited data

Results flagged for a closer look

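Probe sets without a gene in the annotation, which the gene comparisons did not use, also carried changes. Of 11721 such sets, 820 were called between shBAP1 #1 and shControl (7.0%, limma, adjusted over all probe sets), 420 raised and 400 lowered, and 93 differed at least 2-fold (0.793%). The most changed read 5.46, 5.51 and 5.4 in the controls and 8.03, 8.41 and 7.53 with shBAP1 #1, a log2 change of 2.53. Another read 8.05, 7.90 and 7.95 against 5.91, 5.96 and 5.98, a change of -2.01. What these sets read was not analysed here.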

How the results depend on the processing

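Against a 1.2-fold minimum 1811 genes were changed, 888 raised and 923 lowered, 3161 differed between hairpins and 16 had opposite probe sets. Leaving out 1 array gave 3912 to 5571 changed genes, 2034 to 2843 raised, 1878 to 2728 lowered, 5793 to 7080 that differed between hairpins and 104 to 201 with opposite probe sets. With the replicate number as a block, in view of a possible pairing, 4988 genes were changed, 2530 raised and 2458 lowered. In a blocked fit of the 6 arrays alone, chosen after seeing the data, the counts were 5735, 2868 and 2867. Among named genes that replicate block ended 1 call, ERG (adjusted p = 0.05 in the 6 arrays). Averaging the probe sets of a gene, 3 named genes turned direction: MACROH2A1 (-0.12, adjusted p = 0.211), HMGA2 (0.14, adjusted p = 0.292) and CHD2 (-0.17, adjusted p = 0.0823). In fits without 1 array, 2144 of 2232 named-gene values kept direction and call and 88 lost the call. Under the other settings 2370 of 2444 kept both. The median change over all genes was 0.0074, and -0.0019 to 0.0141 under other normalizations. RMA's compression limits what dim genes can show, and the cause of these shifts was not tested.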
